A study of Mus musculus with 6 samples.

Results

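The genes described here are those that move membrane and its cargo through the endocytic system. They were chosen by symbol, as every row whose name starts with Snx, Vps or Rab followed directly by a digit, together with 18 coat, caveola and endocytosis genes listed by name. The rule takes in 151 of the 24062 genes in the counts, with 30 Snx, 32 Vps and 71 Rab symbols. The sorting nexins Snx1, Snx2, Snx5 and Snx6, which partner with retromer, were set apart as 4 SNX-BAR genes. The symbols are not all endosomal genes. Vps72 encodes a chromatin protein, 9 members encode Rab partner proteins such as Rab3gap1 and Rab11fip3, and 4 are RNA genes on the strand opposite to a Rab gene.

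RNA bound to tagged ribosomes was pulled down and sequenced (TRAPseq, for translating ribosome affinity purification) from gastrocnemius and soleus muscle. The mice were ovariectomized females given placebo pellets (vehicle) or 17β-estradiol (E2) pellets for 4 weeks. Mice of both groups carried the knock-in labelled Gt(ROSA)26Sorfm1 with the construct CAG-EGFP/Rpl10a on a B6.129S4 background (birA/Wtp/J in the label). A GFP-tagged ribosomal protein L10a is made after VECad-Cre removes a stop, so that an anti-GFP antibody retrieves ribosomes of endothelial cells. Each group had 3 libraries, each labelled with the numbers of 2 mice. Nothing in the sources used here says whether those 2 mice were pooled. The methods of the study give more biological replicates per group than there are libraries, and p-values measure the spread between libraries only. According to the labels the mice were 4 weeks old and the libraries were made with a total RNA kit that keeps strand, whereas the methods of the study describe a later age at ovariectomy and a ribosome profiling kit.

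Endocytosis brings receptors and ligands into the cell in coated pits, which are built from clathrin heavy and light chains, the adaptor AP2 and the fission enzyme dynamin, or in caveolae, which are built from caveolins and cavins. Early endosomes then sort this cargo. Retromer and SNX-BAR dimers, such as those of SNX1 or SNX2 with SNX5 or SNX6, bend the membrane into tubules and return cargo to the Golgi or the cell surface, while ESCRT proteins pass it on to lysosomes. Rab GTPases mark each compartment and recruit the tethers that dock vesicles. In capillary endothelium the same machinery carries hormones such as insulin across the cell.

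Depth and 2 features of the libraries bear on all values. The counts on genes summed to 84823 in vehicle replicate 3 and to between 125932 and 451034 in the other 5 libraries, and the members took between 0.357% and 0.462% of them. Rn45s, a ribosomal RNA gene, took between 28.5% and 42.9% of these counts. The methods of the study give far more reads per library than these sums, so depth here means counts on genes. Of the 151 members, 67 had a count in vehicle replicate 3 and 113 in vehicle replicate 2. Levels are given as CPM, the counts of a gene after every library is scaled to 1 M counts. A gene listed with 0 counts may have had up to 3, which is 35.4 CPM in vehicle replicate 3 and 6.65 CPM in vehicle replicate 2, the deepest library. Y-linked transcripts (4 genes) were present in vehicle replicate 1 with 40 counts and in vehicle replicate 2 with 63, and the remaining 4 libraries had 0, although all mice are described as female. Over the members, Pearson's r of log CPM across genes was 0.842 between these 2 libraries, 0.457 and 0.571 between them and vehicle replicate 3, and between 0.497 and 0.654 between vehicle replicate 3 and the E2 libraries. All 16 endothelial markers had counts, with summed levels of 295 to 1060 CPM with vehicle and 175 to 766 CPM with E2. Of the 10 with 20 or more counts, 4 were lower at an unadjusted p of 0.05 or less and 2 at an adjusted p below 0.05 (edgeR's quasi-likelihood test, among genes with 20 or more counts), beside 13.7% and 2.9% of all genes, and 0 were higher. Their median log2 fold change was -1.09, beside -0.08 over all genes. The values ran from -3.03 (Eng) to 0.71 (Plvap), with Cdh5, the VE-cadherin gene, at 0.15 and Pecam1 at -0.23. Kdr, the VEGF receptor of endothelium, had 93, 118 and 0 counts with vehicle and 2, 10 and 10 with E2 (log2 fold change -2.19, adjusted p = 0.0356), and Eng had 13, 22 and 0 against 0, 1 and 1 (adjusted p = 0.0493). The 16 skeletal muscle fiber markers summed to between 77300 and 112000 CPM with vehicle and between 74000 and 97900 CPM with E2, and their part in the values was not tested. In every library the muscle fiber markers summed to far more than the endothelial markers. How far RNA of other cells came down with the tagged ribosomes was not tested. In RNA pulled down from whole muscle, fewer endothelial cells and less RNA per cell cannot be told apart.

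Sequences are shown for the 3 members with a role in vesicle transport that passed the adjusted test in either direction, namely Snx5, Clta and Cltb. They lie directly before an annotated start of transcription (RefSeq, GRCm38.p6, read along the strand of the gene), and bases inside an annotated exon of any gene are left out. Capitals mark GC boxes (GGGCGG or CCGCCC). Clta lies on the plus strand of chromosome 4, and the 250 bases before its first start are chr4:44004193-44004442. Those of Cltb, on the minus strand of chromosome 13, are chr13:54611374-54611623. Snx5 lies on the minus strand of chromosome 2, and its window (chr2:144270573-144270822) is inside the longer gene model of GENCODE, with 160 of its 250 bases in exons of Snx5 or Mgme1. The 90 bases next to the start are given (chr2:144270573-144270662), which are intron in that model. The window before the second start of Clta is exonic throughout and is not given. No estrogen response element (ERE, GGTCANNNTGACC, which reads the same on both strands) or single arm of it (GGTCA or TGACC) was present in these 4 windows of 250 bases, and for Snx5 the bases before the outermost start were not searched.
Snx5: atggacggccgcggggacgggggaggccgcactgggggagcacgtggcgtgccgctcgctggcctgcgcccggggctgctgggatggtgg
Clta, first start: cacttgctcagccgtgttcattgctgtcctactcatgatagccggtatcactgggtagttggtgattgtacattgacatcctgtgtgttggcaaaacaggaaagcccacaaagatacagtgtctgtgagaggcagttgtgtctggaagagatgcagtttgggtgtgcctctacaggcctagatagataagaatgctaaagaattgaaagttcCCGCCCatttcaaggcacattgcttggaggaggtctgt
Cltb: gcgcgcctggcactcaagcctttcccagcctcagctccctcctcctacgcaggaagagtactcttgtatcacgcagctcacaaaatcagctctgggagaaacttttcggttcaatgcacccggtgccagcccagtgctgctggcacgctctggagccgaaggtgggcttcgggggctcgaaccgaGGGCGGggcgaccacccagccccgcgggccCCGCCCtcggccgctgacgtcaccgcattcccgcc

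Promoter entries were found for 116 of the 151 members, giving 147 windows. None of these held the ERE, against 0.0639% of all 32851 windows of the same length, and a single arm of it stood in 29.3% of the members' windows against 35.2% of all. GC boxes stood in 66.0% of the members' windows against 32.7% of all. The arm is contained in the ERE, so these 2 counts overlap. A missing match says only that these letters are not in the window.

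Most members were counted rarely. Over the 6 libraries together, 21 of the 151 members had no count, 78 had 10 or more, 56 had 20 or more and 12 had 100 or more, and the median member had 10. Members were still counted more often than other genes. A count was present for 86.1% of them against 58.4% of all genes, and 20 or more counts for 37.1% against 19.4%. Per kilobase of exon, the mean level was highest for Snx22 and Ptrf in both groups (235 and 124 CPM per kb with vehicle, 292 and 99.8 CPM per kb with E2). Snx22 encodes a small sorting nexin with a lipid-binding PX domain, and Ptrf encodes cavin-1, the coat protein of caveolae. In the vehicle group Vps72 (60.2 CPM per kb) and Snx3 (56.3 CPM per kb) came next. The 21 members without a count included 17 Rab symbols, among them Rab25, Rab27b, Rab3b and Rab4b, and the sorting nexins Snx14 and Snx31.

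E2 was compared with vehicle by edgeR's quasi-likelihood test in 2 ways, because edgeR's filter on low counts left only 17 members (11.3%, against 6.99% of all genes). This was the main fit, over 1682 genes. Its filter asks for 50.1 CPM or more in at least 3 libraries. Snx5 reached this in all 3 E2 libraries and in 0 vehicle libraries, so it entered only through the group in which it was higher, whereas Clta, Cltb and Vps72 reached it only in vehicle replicates 1 and 2 and did not enter. A second fit, an alternative with a lower threshold, took every gene with 20 or more counts over the 6 libraries, 4657 genes and 56 members. P-values were adjusted by the Benjamini-Hochberg method over all genes of each fit.

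In the main fit 1 member passed the adjusted test, Snx5, which was higher with E2, and 0 were lower. Among all genes of that fit, 2.5% were higher and 2.85% lower at an adjusted p below 0.05. At an unadjusted p of 0.05 or less, again 1 member was higher and 0 were lower, where 10.6% of all genes were higher and 15.1% lower. The likelihood ratio test, DESeq2 and limma-voom ran on the same 17 members and had 0 lower at an adjusted p below 0.05. Among all genes, 8.38%, 2.91% and 0.535% were lower by these tests in turn. Clta, Cltb and Vps72 were not among the members tested, so these tests could not call them. Without vehicle replicate 3, the quasi-likelihood test called 6 lower and 4 higher of 25 members in this fit, where 24.3% of all genes were lower and 22.2% higher, and without any other library 0 in either direction. The filter thus bears on both counts, and nothing is read from the direction of the 17 members.

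In the fit with 20 or more counts, 1 member, Snx5, was higher and 3 were lower at an adjusted p below 0.05, namely Clta, Cltb and Vps72. These counts stand beside 1.57% of all genes higher and 2.9% lower. At an unadjusted p of 0.05 or less, 9 of the 56 members were lower and 1 was higher, beside 13.7% and 8.35% of all genes. The recorded levels of the E2 libraries were all lower than the lowest vehicle library for 4 members (Snx3, Rab3gap1, Clta and, with its counts of 0 taken as a level of 0, Cav1), beside 11.8% of all genes, and all higher than the highest one for 5 (Snx5, Vps26b, Vps13d, Rab5b and Snx17), beside 6.48%. The median log2 fold change was -0.11 over these members and -0.08 over all genes. The calls moved with the test. At an adjusted p below 0.05, DESeq2 called 1 member lower and 0 higher, beside 0.558% and 0.687% of all genes. Limma-voom called 0 lower, beside 0.601%, and still called Snx5 higher, beside 1.4%. The calls also rest on few libraries. Without vehicle replicate 3, the adjusted test called 7 lower and 4 higher of 54 members, where 14.1% of all genes were lower and 11.8% higher. Without E2 replicate 1 there were 3 lower and 0 higher of 52, beside 0.996% and 1.13% of all genes, and without any other library 0 in either direction.

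**Figure D1:**
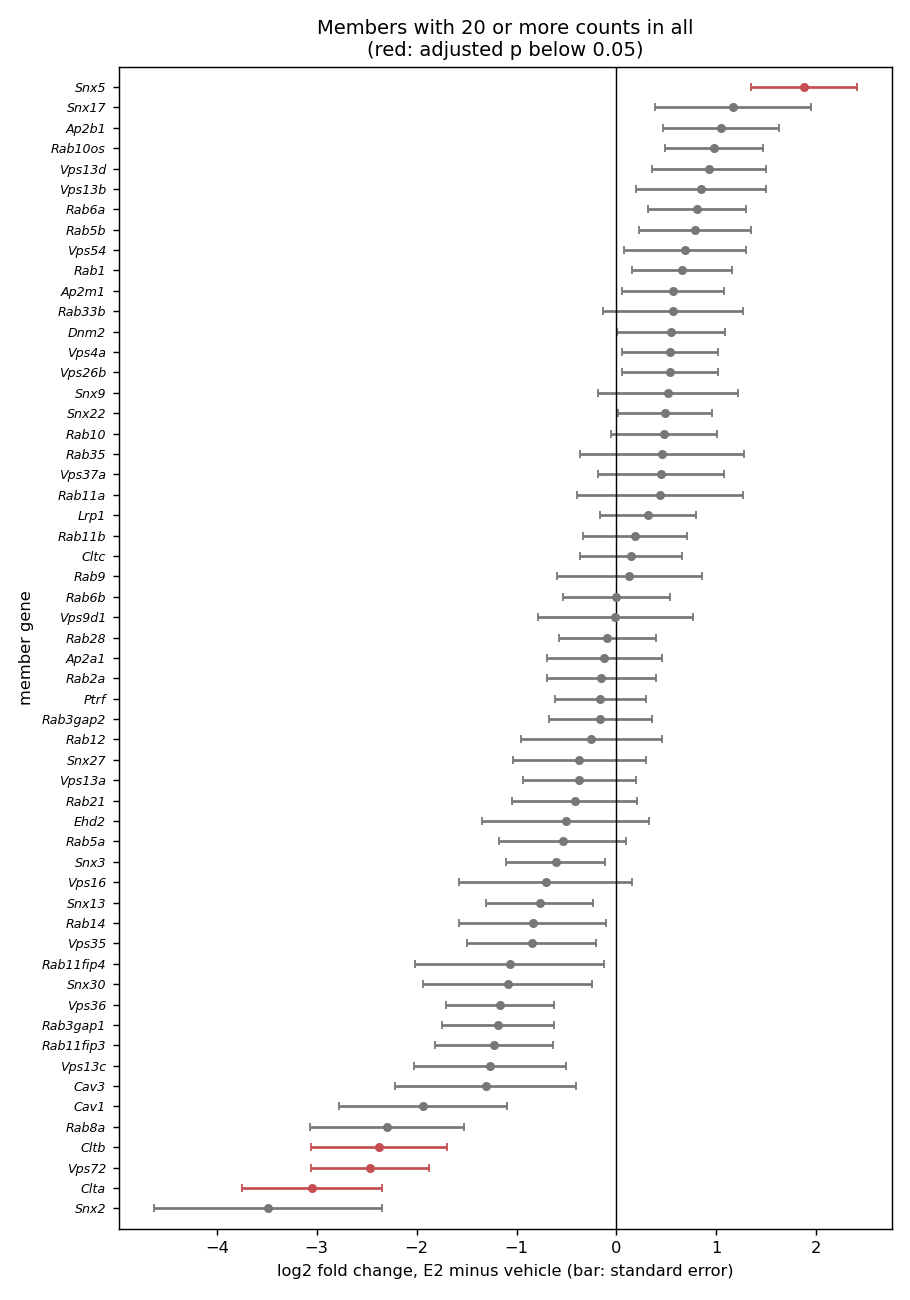
Log2 fold change of E2 minus vehicle (horizontal axis) for the 56 members with 20 or more counts in all, with the standard error as a bar. Members with an adjusted p below 0.05 are red, with Snx5 at 1.88 and Clta, Vps72 and Cltb at -3.05, -2.47 and -2.38.

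Snx5 and Snx2 made up nearly all counts of the 4 SNX-BAR genes, with Snx5 higher in the E2 libraries and Snx2 counted mainly in 2 vehicle libraries. Snx5 (ENSMUSG00000027423.15, chromosome 2, 144250123 to 144270906, minus strand, mm10) had 6, 13 and 2 counts with vehicle and 11, 17 and 15 with E2. These are 20.8, 28.8 and 23.6 CPM with vehicle and 87.3, 85.6 and 74.6 CPM with E2. The groups did not overlap, and the levels within each group were close, at 24.4 ± 4.09 CPM (SD, n = 3) and 82.5 ± 6.90 CPM (SD, n = 3). Among genes with 20 or more counts the log2 fold change was 1.88 (SE, standard error, 0.53, adjusted p = 0.0299, edgeR's quasi-likelihood test). With a library other than vehicle replicate 3 left out, this adjusted p lay between 0.0732 and 0.287, and without vehicle replicate 3 it was 0.00182. In the main fit, which Snx5 entered only through the E2 libraries, the log2 fold change was 1.84 (SE 0.49, adjusted p = 0.0382, same test). Added over each group, 43 counts with E2 and 21 with vehicle give a ratio of 3.21 per count sequenced (exact 95% interval 1.87 to 5.70, counting error only). The adjusted p in the main fit was 0.252 without vehicle replicate 1, 0.177 without vehicle replicate 2, 0.0995, 0.130 and 0.115 without E2 replicates 1, 2 and 3 in turn, and 0.00201 without vehicle replicate 3. It was 0.0535 by DESeq2 and 0.157 without a filter on low counts. The log2 fold change stayed between 1.67 and 2.04 with any of these libraries left out. With both libraries that held Y-linked counts left out it was 1.84 (adjusted p = 0.559, edgeR's quasi-likelihood test), and vehicle replicate 3 was then the only vehicle library.

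Snx2, whose product forms dimers with SNX5 or SNX6, had 6, 22 and 0 counts with vehicle and 0, 0 and 1 with E2. Nearly all counts came from the 2 vehicle libraries with Y-linked transcripts. The count of 0 in E2 replicate 1 allows up to 23.8 CPM, above the 20.8 CPM of vehicle replicate 1. Vehicle replicate 3 could not be told apart from the E2 libraries, as its count of 0 allows up to 35.4 CPM. Per count sequenced, the ratio of E2 to vehicle was 0.0561 (exact 95% interval 0.00137 to 0.339, counting error only). The gene did not pass the filter of the main fit, and its adjusted p was 0.0663 in edgeR's quasi-likelihood test over genes with 20 or more counts (0.00515 without vehicle replicate 3, and between 0.133 and 0.281 without vehicle replicate 1 or an E2 library). Snx1 and Snx6, the remaining partners, had 4 and 7 counts in all. Snx1 had 2 counts in vehicle replicate 2 and 2 in E2 replicate 3, and Snx6 had 2 in vehicle replicate 2 and 3 and 2 in E2 replicates 2 and 3.

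Snx5 made up a different share of the SNX-BAR counts from library to library. It was 6 of 12 counts (exact 95% binomial interval of the share 21.1% to 78.9%) in vehicle replicate 1, 33.3% of 39 (19.1% to 50.2%) in vehicle replicate 2 and both counts in vehicle replicate 3. In the E2 libraries it was all 11 counts (71.5% to 100%) in replicate 1, 85.0% of 20 (62.1% to 96.8%) in replicate 2 and 75.0% of 20 (50.9% to 91.3%) in replicate 3. The 2 counts of vehicle replicate 3 (15.8% to 100%) do not place that library. The summed level of the 4 genes was 41.5, 86.5 and 23.6 CPM with vehicle and 87.3, 101 and 99.5 CPM with E2, so that vehicle replicate 2 lay close to E2 replicate 1.

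**Figure D2:**
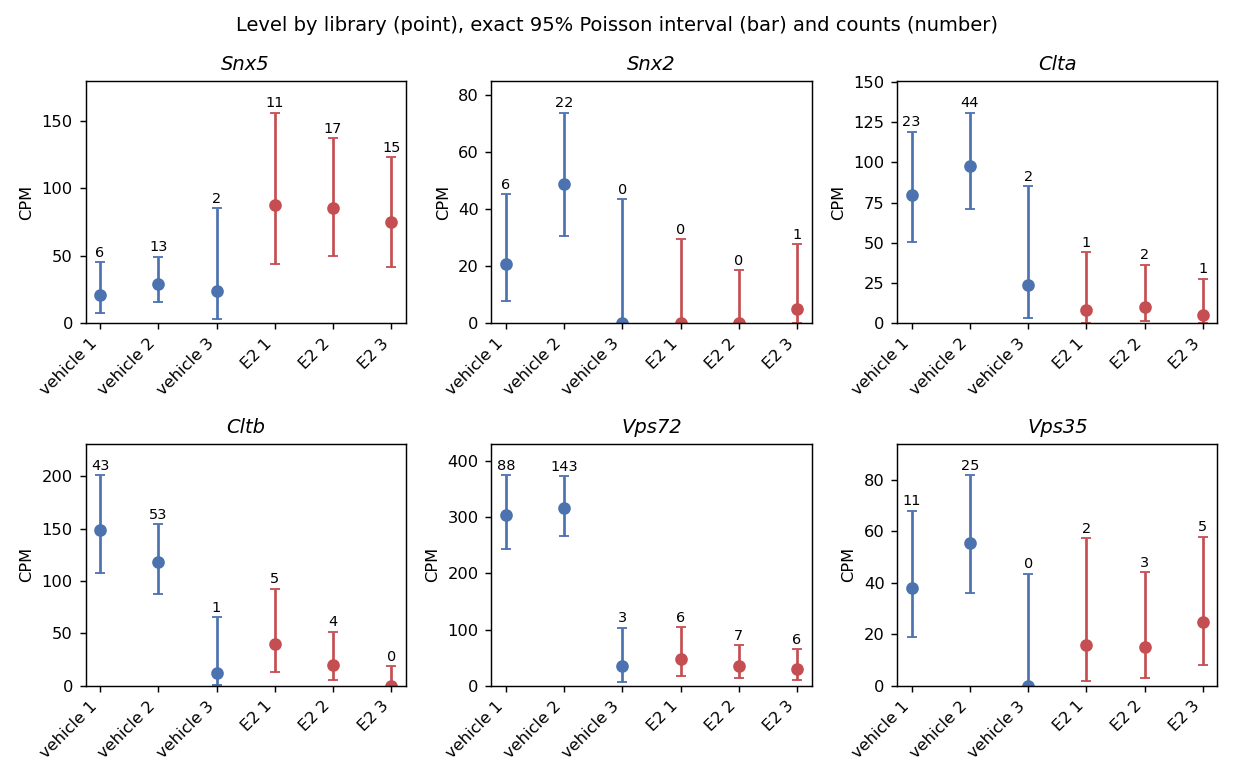
Level in CPM (vertical axis) of 6 members in each of the 6 libraries (blue vehicle, red E2), with the exact 95% Poisson interval as a bar and the count as a number. Snx5 is higher in all 3 E2 libraries, whereas Clta, Cltb, Vps72, Snx2 and Vps35 have most of their counts in vehicle replicates 1 and 2. The intervals of vehicle replicate 3 are wide, and for a count of 0 the upper end of these bars lies above the limit of 3 counts used in the text.

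None of the other 26 sorting nexins passed the adjusted test in either fit. Of these, 3 were tested in the main fit and 7 in the fit with 20 or more counts. Snx3, which sorts the Wnt carrier Wntless with retromer, had 72.7, 95.3 and 70.7 CPM with vehicle and 39.7, 55.4 and 44.8 CPM with E2. The groups did not overlap, and the log2 fold change was -0.64 (adjusted p = 0.368, edgeR's quasi-likelihood test). Snx13, a sorting nexin with a domain of G protein regulators, had 18, 52 and 2 counts with vehicle and 4, 13 and 4 with E2. Its log2 fold change was -0.82 in the main fit, and it was 0.76 with vehicle replicates 1 and 2 left out. Snx17, which recycles integrins and the receptor LRP1, had 5, 3 and 1 counts with vehicle and 3, 4 and 5 with E2 (log2 fold change 1.17, adjusted p = 0.389 over genes with 20 or more counts, edgeR's quasi-likelihood test). Snx27, which couples retromer to recycling receptors, had 9, 12 and 2 counts with vehicle and 1, 3 and 6 with E2, and the groups overlapped. Snx9, which acts with dynamin at clathrin-coated pits, and Snx30 had log2 fold changes of 0.52 and -1.09 there, with 27 and 25 counts in all.

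Snx22 carried 912 of the 1417 counts of the sorting nexins. It had 526, 508 and 1002 CPM with vehicle and 810, 922 and 801 CPM with E2, and vehicle replicate 3 was the highest library. Its log2 fold change was 0.46 in the main fit, 0.96 without vehicle replicate 3 (adjusted p = 0.0147, edgeR's quasi-likelihood test) and -0.17 without vehicle replicates 1 and 2. Exons of Snx22 (chromosome 9, 66065176 to 66069719, minus strand) share 825 bases with Ppib, a widely expressed cyclophilin gene on the plus strand, which had 20 counts in all. The sources used here do not say whether reads were counted by strand, and without it the reads of such a pair cannot be told apart.

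The 4 genes of the retromer core summed to 138, 142 and 82.5 CPM with vehicle and 143, 121 and 139 CPM with E2, and the groups overlapped. Vps26b, which encodes a subunit of the complex, had 28, 36 and 7 counts with vehicle and 16, 20 and 22 with E2. All E2 libraries were higher (79.8 to 96.9 CPM with vehicle, 101 to 127 CPM with E2), and the log2 fold change was 0.51 (adjusted p = 0.471, edgeR's quasi-likelihood test). Vps35, the scaffold of retromer, had 11, 25 and 0 counts with vehicle and 2, 3 and 5 with E2, and its log2 fold change was -0.85 (adjusted p = 0.458 over genes with 20 or more counts, edgeR's quasi-likelihood test). Vps26a had 5 counts in all and Vps29 had 1, so the complex could not be followed as a whole.

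Among ESCRT genes, Vps4a, the ATPase that takes ESCRT-III apart, had a log2 fold change of 0.50 in the main fit, with 83.1, 122 and 47.2 CPM in the vehicle libraries and 103, 146 and 99.5 CPM in the E2 libraries. Vps36, of ESCRT-II, had 33, 45 and 3 counts with vehicle and 2, 7 and 10 with E2 (log2 fold change -1.17, unadjusted p = 0.0378 and adjusted p = 0.199 over genes with 20 or more counts, edgeR's quasi-likelihood test). Its adjusted p was 0.0267 without vehicle replicate 3, and without vehicle replicates 1 and 2 its log2 fold change was 0.04. The lipid transfer genes Vps13a, Vps13b, Vps13c and Vps13d lay between -1.27 and 0.93 without passing the test. Vps13d, which acts at mitochondria and lysosomes, had 11, 13 and 0 counts with vehicle and 5, 11 and 9 with E2, and its groups did not overlap. The tethers HOPS and CORVET (8 genes) and GARP (4 genes) were too rare to compare except for Vps16 (log2 fold change -0.71) and Vps54 (0.69), neither past the test.

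Vps72 had the most counts of the Vps symbols and is no sorting gene. It encodes a subunit of complexes that place the histone variant H2A.Z. It had 88, 143 and 3 counts with vehicle and 6, 7 and 6 with E2, which are 305, 317 and 35.4 CPM against 47.6, 35.3 and 29.8 CPM. The 2 vehicle libraries with Y-linked transcripts were high and the other 4 libraries lay between 29.8 and 47.6 CPM, so the groups overlapped. The log2 fold change was -2.47 (SE 0.59, adjusted p = 0.0123 over genes with 20 or more counts, edgeR's quasi-likelihood test). By limma-voom over the same genes, Vps72 did not pass the adjusted test. Leaving out vehicle replicates 1 and 2 together gave 0.08 (adjusted p = 0.997), and leaving out vehicle replicate 1 or 2 alone, or E2 replicate 2 or 3, gave adjusted p-values between 0.0994 and 0.190.

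Among genes with 20 or more counts, both clathrin light chains were called lower with E2, and the heavy chain was not called. Limma-voom called neither light chain there. The light chains summed to 66, 97 and 3 counts with vehicle and to 6, 6 and 1 with E2. In CPM these were 229, 215 and 35.4 against 47.6, 30.2 and 4.97, and the groups overlapped. The high values were those of vehicle replicates 1 and 2, which held Y-linked transcripts. Clta (chromosome 4, 44004452 to 44032846, plus strand) had 23, 44 and 2 counts with vehicle and 1, 2 and 1 with E2. These are 79.6, 97.6 and 23.6 CPM against 7.94, 10.1 and 4.97 CPM, and no E2 library reached a vehicle library. The log2 fold change was -3.05 (SE 0.70, adjusted p = 0.0102 over genes with 20 or more counts, edgeR's quasi-likelihood test). Cltb (chromosome 13, 54592401 to 54611344, minus strand) had 43, 53 and 1 counts with vehicle and 5, 4 and 0 with E2, and its log2 fold change was -2.38 (SE 0.68, adjusted p = 0.0323, same test). Its level in vehicle replicate 3 (11.8 CPM) lay among the E2 libraries (0 to 39.7 CPM, where the count of 0 allows up to 14.9 CPM). The endothelial markers had a median log2 fold change of -1.09 in the same fit, with 4 of 10 lower and 0 higher at an unadjusted p of 0.05 or less beside 13.7% and 8.35% of all genes, and their part in these values was not tested.

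Cltc, which encodes the heavy chain that light chains bind, had 11, 28 and 5 counts with vehicle and 5, 10 and 12 with E2, which are 38.1, 62.1 and 58.9 CPM against 39.7, 50.4 and 59.7 CPM. Its log2 fold change was 0.11 in the main fit, with a sign that turned under 4 alternatives. Of the counts on the 3 clathrin genes, the heavy chain gene held 11 of 77, 28 of 125 and 5 of 8 in the vehicle libraries, and 5 of 11, 10 of 16 and 12 of 13 in the E2 libraries. Its share was thus lower in vehicle replicates 1 and 2 than in the other 4 libraries. Neither light chain gene passed the filter of the main fit. With any library but vehicle replicate 3 or E2 replicate 1 left out, their adjusted p-values rose to between 0.0809 and 0.144 for Clta and between 0.168 and 0.363 for Cltb, and with vehicle replicates 1 and 2 both left out, too few counts remained for either to be tested. No exon of Clta, Cltb or Vps72 overlaps a gene on the opposite strand by 50 or more bases.

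**Figure D3:**
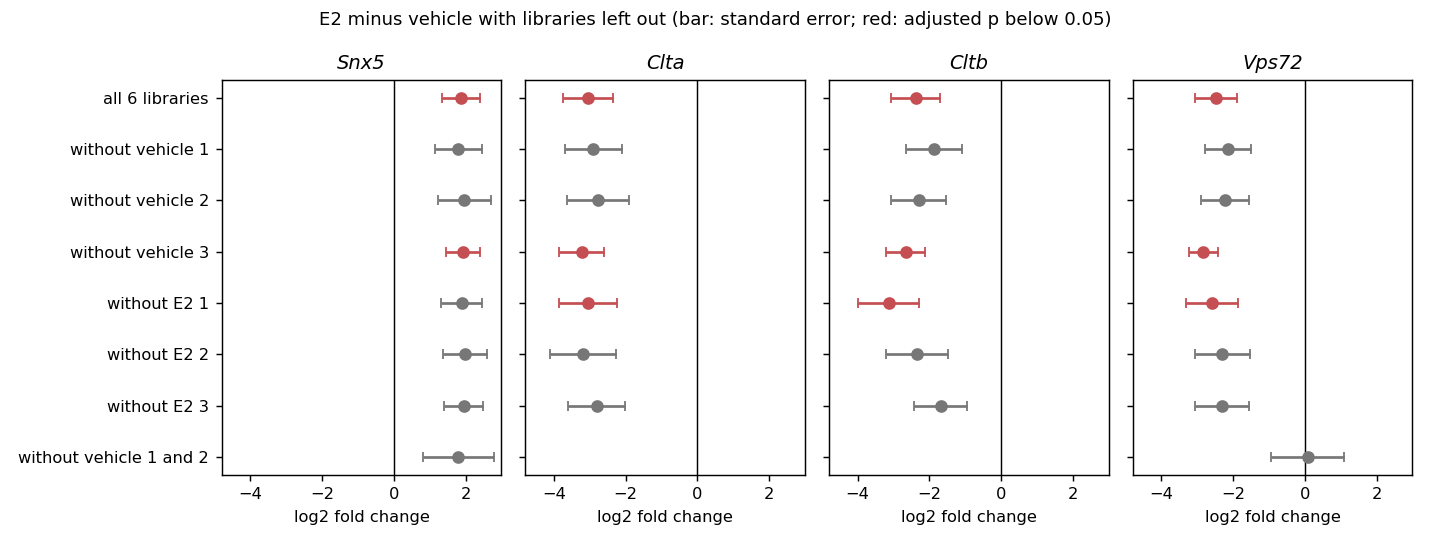
Log2 fold change of E2 minus vehicle (horizontal axis) for Snx5, Clta, Cltb and Vps72 among genes with 20 or more counts, with all 6 libraries and with libraries left out (rows), and the standard error as a bar. Red marks an adjusted p below 0.05, which holds in both directions with all libraries and without vehicle replicate 3, and the value of Vps72 moves to 0.08 without vehicle replicates 1 and 2.

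The AP2 adaptor, which links clathrin to cargo, had no gene past the adjusted test in either fit with all libraries. Ap2b1, its beta subunit, had 24.2, 39.9 and 118 CPM with vehicle and 23.8, 121 and 114 CPM with E2, so that each group held low and high libraries. Its log2 fold change was 1.04 in the main fit, 1.72 without vehicle replicate 3 (adjusted p = 0.00743, edgeR's quasi-likelihood test) and -0.29 without vehicle replicates 1 and 2. Ap2m1, the subunit that reads tyrosine signals in cargo, had a log2 fold change of 0.55, and Ap2a1 had one of -0.12 among genes with 20 or more counts. Ap2a2 had 5 counts in all. Dnm2, the widely expressed dynamin, had 9, 21 and 7 counts with vehicle and 11, 7 and 13 with E2 (log2 fold change 0.52), and Dnm1, the neuronal one, had 12 counts in all. Lrp1, a large endocytic receptor, had 80.4 ± 28.7 and 92.5 ± 7.18 CPM with vehicle and E2 (SD, n = 3 each), and the groups overlapped.

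Ptrf (Cavin1, chromosome 11, 100956733 to 100970887, minus strand) had 492, 548 and 295 CPM with vehicle and 222, 504 and 348 CPM with E2. The groups overlapped, the log2 fold change was -0.20 in the main fit, and it was 0.12 without E2 replicate 1 and 0.36 without vehicle replicates 1 and 2. Cav1, the caveolin that endothelial caveolae need, had 6, 23 and 2 counts with vehicle and 0, 0 and 4 with E2. These are 0, 0 and 19.9 CPM with E2 against 20.8, 51.0 and 23.6 CPM with vehicle. The count of 0 in E2 replicate 1 allows up to 23.8 CPM, above vehicle replicates 1 and 3, so a separation of the groups was not detectable at this depth, and the adjusted p was 0.166 over genes with 20 or more counts in edgeR's quasi-likelihood test. Cav3, the caveolin of muscle fibers, had 8, 11 and 0 counts with vehicle and 0, 2 and 2 with E2. Cav2 had 10 counts in all. Of EHD proteins and EEA1, which shape and tether endosomes, Ehd2 at caveola necks had the most counts (24 in all), and none passed the test.

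**Figure D4:**
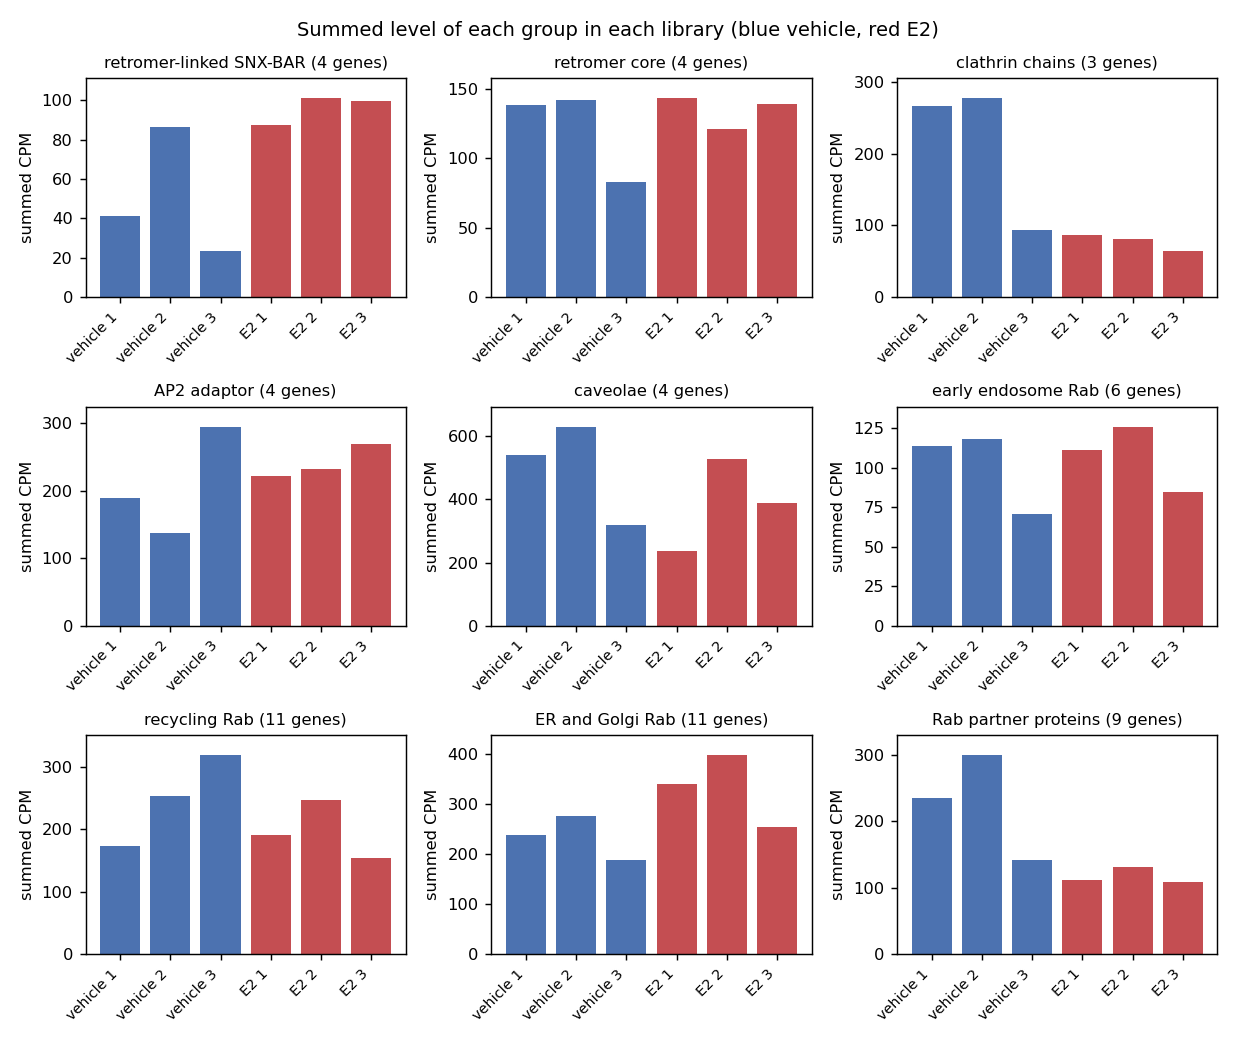
Summed level in CPM (vertical axes, each from 0) of 9 groups of members in each library, vehicle in blue and E2 in red. The clathrin chains and the Rab partner proteins are lower in every E2 library than in any vehicle library. Vehicle replicate 3 is near the E2 libraries in both. Of single genes with 20 or more counts, 11.8% had all E2 libraries lower. The other groups apart from the SNX-BAR genes overlap.

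Of the 71 Rab symbols, 5 were tested in the main fit and 22 in the fit with 20 or more counts, and edgeR's quasi-likelihood test called 0 of them at an adjusted p below 0.05 in either. At an unadjusted p of 0.05 or less it had 0 in the main fit, beside 15.1% lower and 10.6% higher of all genes, and 3 lower and 0 higher in the other, beside 13.7% and 8.35%. DESeq2 and limma-voom called 0 at the adjusted threshold in both fits. The likelihood ratio test called 0 in the main fit and 1 lower in the other. In that other fit 6.85% of all genes were lower by the likelihood ratio test, 0.558% by DESeq2 and 0.601% by limma-voom. Library totals only gave 1 lower there, beside 4.36%. Without vehicle replicate 3 the quasi-likelihood test called 2 lower and 1 higher in each fit. Of all genes, 14.1% were then lower and 11.8% higher there, and 24.3% and 22.2% in the main fit. Rab1, which moves vesicles from the endoplasmic reticulum to the Golgi, had a log2 fold change of 0.63, and Rab6a, of the Golgi, had one of 0.76. Rab11b, of the recycling endosome, was at 0.17 with a sign that turned when vehicle replicate 1 or 2 was left out (-0.10 and -0.28). Rab28 was at -0.14, with 26 counts each in vehicle replicate 3 and E2 replicate 1 and 17 in E2 replicate 3, and its value was 0.28 without vehicle replicate 3.

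Rab10os, an RNA gene on the plus strand of chromosome 12 whose exons share 143 bases with those of Rab10, was counted more often than Rab10 itself. It had 45, 56 and 17 counts with vehicle and 53, 47 and 36 with E2, against 5, 31 and 4 and 5, 16 and 9 for Rab10, a GTPase of glucose transporter traffic. The level of Rab10os was 160 ± 38.3 CPM with vehicle and 279 ± 126 CPM with E2 (SD, n = 3 each), with a log2 fold change of 0.94 (adjusted p = 0.214, edgeR's quasi-likelihood test, and 1.21 without vehicle replicate 3, adjusted p = 0.00915). For Rab10 the log2 fold change was 0.48 among genes with 20 or more counts. Reads from the shared exons could belong to either gene unless strand was used.

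Among genes with 20 or more counts, Rab8a, which directs vesicles to the cell surface, had 16, 21 and 1 counts with vehicle and 0, 3 and 1 with E2 (log2 fold change -2.30, adjusted p = 0.0724, edgeR's quasi-likelihood test, and 0.00887 without vehicle replicate 3). The early endosome Rabs differed in sign. Rab5b had 31.2, 33.3 and 11.8 CPM with vehicle and 63.5, 35.3 and 39.8 CPM with E2, a difference without overlap that did not pass the test (log2 fold change 0.79, adjusted p = 0.422), and Rab5a was at -0.54. As a group the 6 early endosome Rabs summed to 70.7 to 118 CPM with vehicle and 84.6 to 126 CPM with E2. The 11 Rabs of recycling endosomes and the 11 of the endoplasmic reticulum and Golgi overlapped between the groups as well. The late endosome Rabs (Rab7 with 7 counts in all) and the 8 secretory Rabs were too rare to follow, apart from Rab9 (log2 fold change 0.13).

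The 9 Rab partner proteins summed to 235, 299 and 141 CPM with vehicle and to 111, 131 and 109 CPM with E2. The groups did not overlap, but vehicle replicate 3, with 12 counts, lay close to E2 replicate 2. Of single genes with 20 or more counts, 11.8% had all E2 libraries lower. The part of the endothelial markers in these sums was not tested. Rab3gap1, part of the enzyme that switches Rab3 off, had 65.8, 77.6 and 35.4 CPM with vehicle and 23.8, 25.2 and 24.9 CPM with E2 (log2 fold change -1.19, adjusted p = 0.199 over genes with 20 or more counts, edgeR's quasi-likelihood test). Its second subunit Rab3gap2 was at -0.16. Rab11fip3, which binds Rab11 at recycling endosomes, had 19, 36 and 1 counts with vehicle and 3, 6 and 3 with E2. It was at -1.23 (adjusted p = 0.207, and 0.0335 without vehicle replicate 3, same test).

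Exons of 38 members share 50 or more bases with a gene on the opposite strand, and for 24 (15.9%) that gene codes for protein, against 11.9% of all genes. Among members with 20 or more counts the latter share was 26.8%, and it was 9.47% among members with fewer, beside 25.7% and 8.58% of all genes. Of the 31 pairs in which the partner has a row in the counts, the member had more counts in 15. Snx5 shares 206 bases with Mgme1, which had 1 count. Ap2a2 had 5 counts and Gm16982 opposite it 214, and Vps37b had 4 where Hip1r, a clathrin-binding gene, had 105. Hip1r had 35, 59 and 4 counts with vehicle and 2, 3 and 2 with E2. The part of the strand setting in these counts was not tested.

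**Figure D5:**
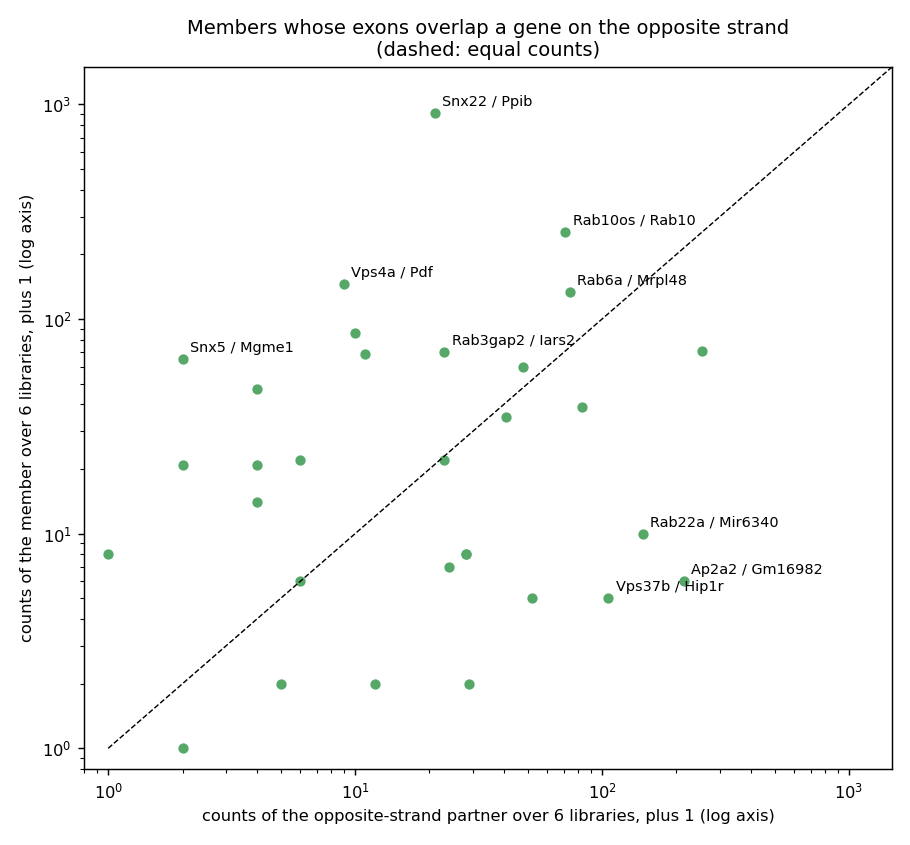
Counts over the 6 libraries, plus 1, of members (vertical log axis) and of the opposite-strand partner whose exons they overlap (horizontal log axis), for the 31 pairs in which both have a row. The dashed line marks equal counts, with Snx22 far above it against Ppib and Ap2a2, Vps37b and Rab22a below it.

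Genes of the same pathways outside the rule were taken from 5 lists, and 0 of the 12 tested were called at an adjusted p below 0.05 in the main fit, where 5 were lower and 0 higher at an unadjusted p of 0.05 or less, beside 15.1% and 10.6% of all genes. By edgeR's likelihood ratio test 3 were lower at an adjusted p below 0.05, beside 8.38% of all genes, and 0 by DESeq2 and by limma-voom. Without vehicle replicate 3, 12 of 17 were lower at an adjusted p below 0.05 in the quasi-likelihood test, beside 24.3% of all genes, and 0 without any other library. Of the 21 other coat and fission genes, 5 were tested there and 0 had an unadjusted p of 0.05 or less, with log2 fold changes of -0.37 for Bin1, -0.16 for Dab2, -0.71 for Epn1, -0.82 for Itsn1 and -0.69 for Murc. Of 14 cargo receptors, 5 were tested and 3 were lower at that threshold, namely Cd36, a fatty acid receptor (log2 fold change -1.30), Igf2r, the receptor that brings lysosomal enzymes and IGF2 into endosomes (-1.21), and Vldlr (-1.43), while Lrp6 (-0.49) and M6pr (-0.67) did not pass. Igf2r had 42, 99 and 15 counts with vehicle and 9, 14 and 14 with E2, and in CPM the groups did not overlap (181 ± 37.2 and 70.5 ± 0.910, SD, n = 3 each). Of 17 SNARE genes, 2 were tested and both were lower at the unadjusted threshold, namely Stx12 (-1.66) and Vti1b (-1.24), which fuse endosomes. Among genes with 20 or more counts, leaving out vehicle replicates 1 and 2 together moved these values to 0.18 for Cd36, -0.48 for Vldlr, 0.86 for Stx12 and -0.22 for Vti1b, and Igf2r was at -1.28. Of 15 ESCRT and 8 WASH or retromer partner genes, none was tested in the main fit.

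Among genes with 20 or more counts, 1 of 38 genes of the 5 lists was lower at an adjusted p below 0.05 and 0 were higher, beside 2.9% and 1.57% of all genes, so the share is near that of all genes. Tbc1d5, which binds retromer and switches Rab7 off, had 18, 16 and 1 counts with vehicle and 0, 0 and 2 with E2, a ratio of 0.0897 per count sequenced (exact 95% interval 0.0105 to 0.349, counting error only, adjusted p = 0.0391 in edgeR's quasi-likelihood test). Counts of 0 in E2 replicates 1 and 2 allow up to 23.8 and 15.1 CPM, above the 11.8 CPM of vehicle replicate 3. The adjusted p was 0.00378 without vehicle replicate 3, between 0.0999 and 0.248 without vehicle replicate 2 or an E2 library, and the gene had too few counts without vehicle replicate 1. At an unadjusted p of 0.05 or less, 4 of 12 coat and fission genes, 2 of 6 ESCRT genes, 2 of 5 SNARE genes, 5 of 11 cargo receptors and 1 of 4 WASH or retromer partners were lower, and 0 were higher in any list, beside 13.7% lower and 8.35% higher of all genes. Insr, the insulin receptor, had 14, 24 and 2 counts with vehicle and 1, 8 and 7 with E2, and its log2 fold change was -0.45 (adjusted p = 0.683, same test).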

How the data were processed

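TRAPseq libraries from vehicle- and E2-treated mice were compared, 3 in each group, with groups and replicate numbers taken from the sample labels. The authors used bcl2fastq (2.17), FastQC (0.11.2), STAR (2.5.3a) with mm10, and featureCounts from Subread (1.6.0), with versions as in the submitters' notes. They deposited raw counts per gene symbol, not normalized. For the strand setting of the counting nothing is given in the sources used here.

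E2 was compared with vehicle by edgeR (4.0.16) in R (4.3.3) with filterByExpr, TMM scaling and the quasi-likelihood test, adjusted by Benjamini-Hochberg, with calls at 0.05. The fit over genes with 20 or more counts was an alternative, and its own alternatives were chosen after seeing the data. DESeq2 (1.42.0) and limma-voom (limma 3.58.1) were further alternatives, and the tests were tested on simulated data. CPM use the total of all counts as denominator. Poisson and binomial intervals are exact (95%) and cover counting error only, since no molecular identifiers are described. For a single gene, the smallest p of an exact permutation test (two-sided) with 3 libraries per group is 0.1, the value for every member without overlap. All pairs of libraries differed by more than sampling noise (chi-square per degree of freedom of 2.89 or more). Libraries with the same replicate number did not deviate together (r of -0.127, 0.016 and -0.189), so no pairing was used.

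All 151 symbols were found in GENCODE (mouse release M21, mm10), 3 of them through a synonym, and the exons counted by the authors may differ. Named are the SNX-BAR genes, members that passed the filter, the coat and endocytosis genes, the retromer core, up to 4 further members per family with the most counts, and genes of the pathway lists that passed the filter. The other genes were named after their values were seen, namely members without overlap between groups or past a test, Snx14, Snx31, Vps13b, Vps13c, Vps16, Vps37b, Vps54, Rab3b, Rab4b, Rab5a, Rab7, Rab8a, Rab9, Rab22a, Rab25, Rab27b, Tbc1d5, Insr, Kdr, Eng, Plvap, Cdh5, Pecam1, Ppib, Mgme1, Gm16982 and Hip1r. The members, the lists and the 2 libraries left out together were chosen with earlier results of these data known.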

Additional observations from a re-analysis of the deposited data

How the results depend on the processing

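The count of members called moved with the filter and with single libraries. In the main fit, 0 members were lower at an adjusted p below 0.05, against 3 without a filter and 3 with 20 counts in all, and 0 to 6 with a library left out. The share of all genes lower in these fits was 2.85%, 0.939%, 2.9% and 0.0956% to 24.3%. Members higher at that threshold numbered 1 (2.5% of all genes), and 0 without a filter (0.221%), with 10 counts in every library (1.9%) and with DESeq2 (2.79%). With a library left out they numbered 0 to 4 (0.279% to 22.2% of all genes). Snx5 had too few counts to enter the fit with 10 counts in every library, so it could not be called there. At an unadjusted p of 0.05 or less, lower members numbered 11 without a filter, 9 with 20 counts in all, 1 without the ribosomal RNA gene Rn45s and 0 to 7 with a library left out (6.81%, 13.7%, 15.8% and 8.35% to 27.5% of all genes), and higher members 0 with 10 counts in every library, 2 by the likelihood ratio test, 3 by limma-voom and 1 to 5 with a library left out (11.9%, 13.1%, 15.8% and 4.95% to 25.9% of all genes). With the replicate block, which pairs libraries that share only a number, 0 members (0.416% of all genes) were higher at the adjusted threshold in the main fit (Snx5 at 1.84, adjusted p = 0.138, edgeR's quasi-likelihood test), and with 20 counts in all the replicate block gave 1 lower and 0 higher (0.752% and 0.795% of all genes). Without vehicle replicates 1 and 2, Clta and Cltb had too few counts to be tested with 20 counts in all. With 20 counts in all, lower members at the adjusted threshold numbered 3 (2.9% of all genes), and 5 by library totals only (4.36%) and by the likelihood ratio test (6.85%). They numbered 1 by DESeq2 (0.558%), 0 by limma-voom (0.601%), and 0 to 7 with a library left out (0.227% to 14.1% of all genes). Higher ones numbered 1 (1.57%), and 0 by library totals only (1.16%), by DESeq2 (0.687%) and without vehicle replicates 1 and 2 (0.215%), and 0 to 4 with a library left out (0.126% to 11.8% of all genes). At the unadjusted threshold, 9 were lower, 5 by DESeq2, 0 without vehicle replicates 1 and 2 and 4 to 11 with a library left out (13.7%, 8.16%, 3.15% and 7.08% to 19.4% of all genes), and 1 was higher, 2 by the likelihood ratio test, by limma-voom and without vehicle replicates 1 and 2, and 1 to 5 with a library left out (8.35%, 10.6%, 10%, 6.64% and 4.21% to 17.8% of all genes). The cause was not tested.

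Log2 fold changes turned sign for Cltc (-0.01 without a filter, -0.05 by library totals only, -0.15 to 0.34 with a library left out), and with a library left out they spanned -0.28 to 0.12 for Ptrf, -0.28 to 0.70 for Rab11b and -0.45 to 0.28 for Rab28. Without vehicle replicates 1 and 2, they turned for Ap2b1 (-0.29), Dnm2 (-0.35), Ptrf (0.36), Rab1 (-0.01), Rab11b (-0.84), Snx13 (0.76) and Snx22 (-0.17). With 20 or more counts, they turned for Cltc (-0.17), Vps36 (0.04) and Vps72 (0.08). Among the pathway genes named in the text, with 20 or more counts, they turned for Cd36 (0.18), Dab2 (0.39), Epn1 (0.65), Itsn1 (0.23), Murc (0.06) and Stx12 (0.86). Vehicle replicate 3 was then the lone vehicle library, assumed to vary like the E2 libraries. Snx5 stayed above 0 wherever it was tested. Depth limits every value: the counts of most members were below 20 in all.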
